A study of Homo sapiens with 6 samples.

Results

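Semaphorins, plexins, neuropilins, ephrins and Eph receptors, the cues and receptors of 2 contact and guidance systems, were followed in the human melanoma cell line A375. Membership was set by gene symbol, and 51 of the 29790 genes in the deposited table met the rule, namely 19 semaphorins, 9 plexins, 2 neuropilins, 8 ephrins and 13 Eph receptors. SEMA5B and EPHA10 also fit the rule, but the deposited table has no genes under these symbols, so they were not analysed here. A375 is an established line kept in serum-containing medium, and the series compared untreated cells with cells exposed for 24 h to 3 µM fluvastatin, with 3 libraries in each group, numbered 0, 1 and 2. Fluvastatin is a statin, which blocks the enzyme that makes mevalonate and so the supply of cholesterol and of the prenyl lipids that anchor some signalling proteins in membranes. The labels speak of triplicates without saying that these were separate cultures, so the p-values speak of variation among the 6 libraries, part or all of which may be technical.

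Semaphorins are secreted or membrane-bound ligands, some of which collapse the growth cones of axons. Plexins are their receptors and act on the cytoskeleton through small GTPases, and neuropilins are co-receptors that present class 3 semaphorins to A-type plexins and also bind vascular endothelial growth factors. Ephrins are ligands held on the cell surface, the A class by a lipid anchor and the B class by a transmembrane segment, and Eph receptors are the receptor tyrosine kinases that meet them at contacts between cells. In melanocytes and melanoma both systems are known for roles in attachment, migration and vessel growth.

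Values were taken as FPKM (mapped fragments per kilobase of transcript length, scaled by library size), so levels can be set side by side between genes. Depth relative to control replicate 0, read from the steps between low values, was 0.963 to 1.19 in controls and 1.27 to 1.51 in fluvastatin libraries, so depth and treatment cannot be told apart. Of the 14344 genes that reached 1 FPKM or more in 3 or more libraries, limma on log2(FPKM + 1) called 3971 (27.7%) at a Benjamini-Hochberg adjusted p below 0.05. Of these, 2017 rose (14.1%) and 1954 fell (13.6%). With depth as a covariate 73 of all 14344 genes passed. Of 5 melanocyte lineage markers read, SOX10 and MITF averaged at least 1 FPKM, and PMEL, TYRP1 and DCT lay below 1 FPKM in every library. Their summed level lay between 28.5 and 33.6 FPKM in controls and between 73.6 and 83.1 FPKM after fluvastatin; SOX10 rose and MITF did not pass. SOX10 was at 23.6, 26.1 and 20.1 FPKM in controls and at 73.4, 75.4 and 67.1 FPKM after fluvastatin. The summed level of 5 neuronal markers lay between 90.5 and 112.2 FPKM in controls and between 152.8 and 198.4 FPKM after fluvastatin, mostly from the tubulin gene TUBB3. TUBB3 and SYT1 rose, SNAP25 fell from 3.29 to 1.78 FPKM, and RBFOX3 and STMN2 were near 0. The summed endothelial markers, of which 4 were in the table, stayed at or below 0.302 FPKM in each library. Summed fibroblast markers lay between 9.31 and 12.8 FPKM in controls and between 5.16 and 7.38 FPKM after fluvastatin, keratinocyte markers between 38.4 and 63.9 and between 69.97 and 71.3 FPKM, and leukocyte markers between 0.506 and 1.31 and between 2.29 and 2.38 FPKM. COL1A1 made up most of the fibroblast sum and fell from 10.3 to 5.50 FPKM. KRT10 made up most of the keratinocyte sum and did not pass, with means of 52.3 and 65.5 FPKM. KRT14 rose from 0.691 to 4.99 FPKM, passing the filter only through the treated libraries, and KRT5 stayed at or below 0.398 FPKM. The leukocyte sum, of 2 genes in the table, was mostly LYZ, which rose from 0.893 to 2.29 FPKM. The part of these shifts in the results below was not tested. All 6 libraries are of the A375 line, and in bulk RNA a change in all cells and a change in some of them cannot be told apart.

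In untreated cells 5 guidance genes lay at or above 50 FPKM, and these were the receptor EPHA2, the ligands SEMA3A and SEMA7A, the co-receptor NRP1 and the receptor PLXNB2. A further 11 lay between 10 and 50 FPKM, 18 between 1 and 10 FPKM and 17 below 1 FPKM. The 34 genes that passed the filter were tested. Of these, 7 rose (20.6%, beside 14.1% of all tested genes), 3 fell (8.82%, beside 13.6%) and 24 did not pass. EPHA6, among those that fell, passed the filter only through the control libraries, and without it 2 of 33 fell (6.06%). Together 29.4% of them were called, beside 27.7% of all tested genes, so the share that changed was near the background. The libraries of the 2 groups did not overlap for 13 genes higher after fluvastatin (38.2%, beside 21.9% of all tested genes) and for 5 lower (14.7%, beside 22.9%). Their median log2 fold change was 0.09, beside -0.01 over all tested genes. The largest rises were those of the receptors PLXNA3 and PLXNA2 and of the ligands SEMA3B and EFNB1, and the largest fall was that of SEMA6B.

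**Figure D1:**
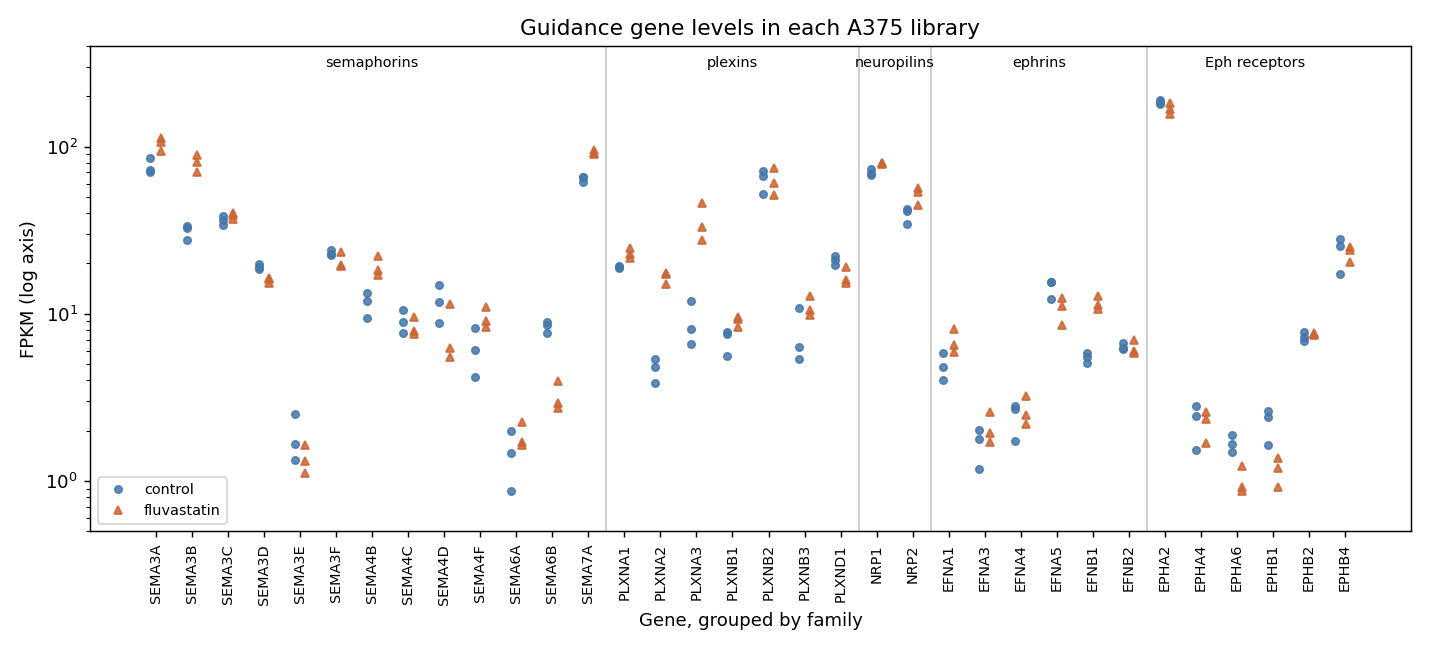
FPKM on a log axis for each of the 34 tested genes, grouped by family, with 1 circle per control library and 1 triangle per fluvastatin library (3 of each). EPHA2 lies highest in both groups, and the circles and triangles of PLXNA2, PLXNA3, SEMA3B, EFNB1 and SEMA6B stand apart.

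**Figure D2:**
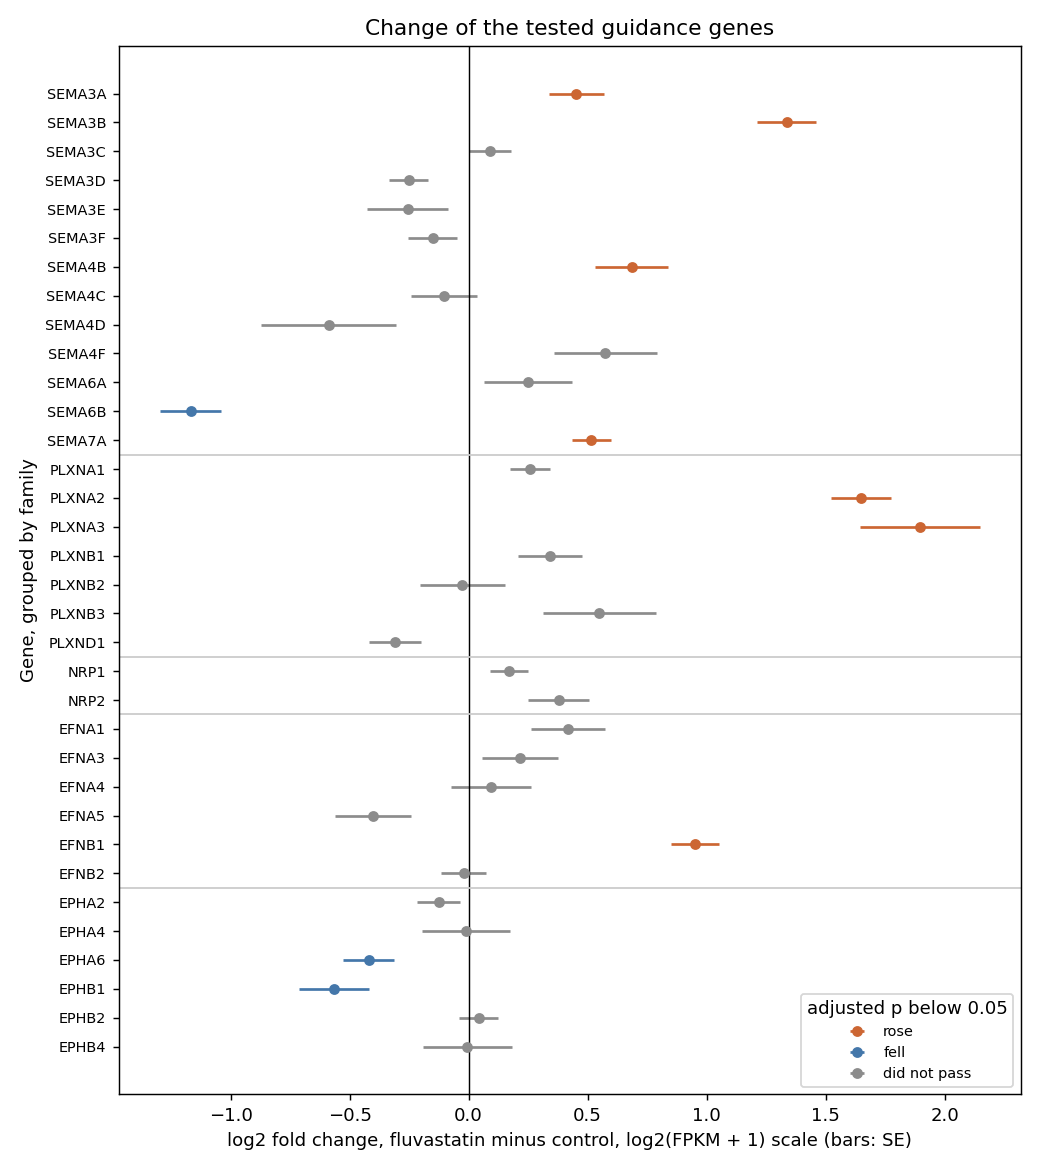
The log2 fold change on the log2(FPKM + 1) scale (fluvastatin minus control, 3 libraries each; bars are the standard error) for each tested gene, coloured by whether it passed an adjusted p of 0.05. The points run from -1.17 for SEMA6B to 1.90 for PLXNA3, and 24 of the 34 are grey because they did not pass.

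A-type plexins receive class 3 semaphorins through neuropilins and class 6 semaphorins directly. Of 3 tested, PLXNA2 and PLXNA3 rose (66.7%, beside 14.1% of all tested genes) and PLXNA1 did not pass. PLXNA2 (ENSG00000076356.6; GRCh38 chromosome 1, 208022242 to 208244320, minus strand) measured 5.34, 3.86 and 4.78 FPKM in the control libraries, in replicate order, against 17.6, 15.04 and 17.4 FPKM in the treated libraries. The lowest treated library was thus well above the highest control. PLXNA2 rose 3.58-fold, from 4.66 ± 0.747 to 16.7 ± 1.43 FPKM (SD, n = 3 each), with a log2 fold change of 1.65 ± 0.13 (SE) and adjusted p = 5.50e-04. It was also the only guidance gene past the threshold with depth as a covariate (log2 fold change 2.05, adjusted p = 0.0365, over a range of 8.68e-05 to 0.0365 in 14 alternatives).

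PLXNA3 (ENSG00000130827.6; chromosome X, 154458281 to 154477779, plus strand) was at 11.9, 6.56 and 8.08 FPKM in controls and at 46.03, 27.7 and 32.9 FPKM after fluvastatin. Replicate 0 was the highest library in each group, and the groups did not overlap. The mean of PLXNA3 rose from 8.86 ± 2.78 to 35.5 ± 9.46 FPKM, 4.01-fold, with a log2 fold change of 1.90 ± 0.25 and adjusted p = 0.00335. Its call was lost with depth as a covariate (adjusted p = 0.0574, over a range of 0.00115 to 0.0574), where the log2 fold change was 2.75. PLXNA1, the highest A-type plexin in controls, was at 18.7, 19.4 and 19.2 FPKM and then at 22.8, 21.7 and 24.6 FPKM (adjusted p = 0.0659), and it passed once genes averaging under 5 FPKM were left out (0.0431, the lowest of a range up to 0.489). PLXNA4 stayed at or below 0.105 FPKM in each library. PLXNA1 made up 58.5% of the summed A-type plexin FPKM in controls and 30.6% after fluvastatin, while PLXNA3 went from 27.1% to 47.2% and PLXNA2 from 14.3% to 22.2%. The sum itself was 36.03, 29.9 and 32.1 FPKM in controls and 86.5, 64.4 and 75.1 FPKM in fluvastatin libraries.

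**Figure D3:**
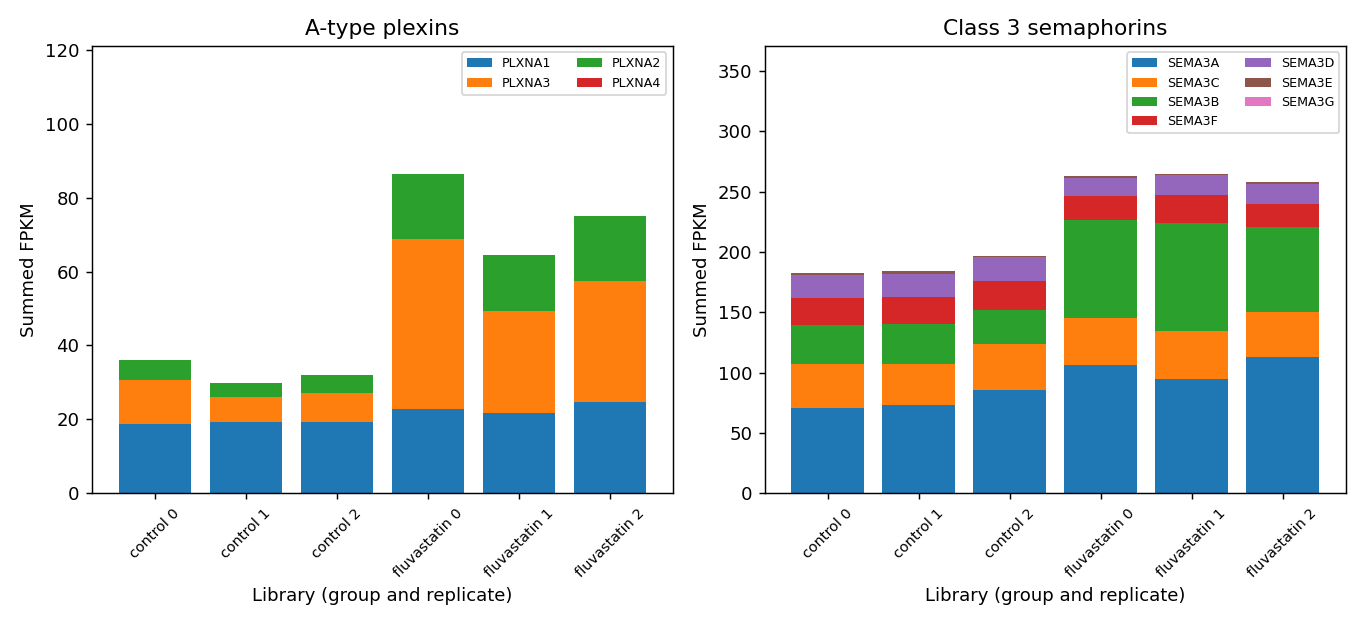
Stacked bars of FPKM by library (control and fluvastatin replicates 0, 1 and 2) for the 4 A-type plexins and the 7 class 3 semaphorins, 1 colour per gene. The A-type plexin bars reach 29.9 to 36.03 FPKM in controls and 64.4 to 86.5 FPKM after fluvastatin, with PLXNA3 and PLXNA2 taking more of the bar, and in the semaphorin bars the SEMA3B segment grows.

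Of 4 tested B-type and D-type plexins limma called 0, beside 27.7% of all tested genes. PLXNB1 and PLXND1 had unadjusted p-values of 0.0382 and 0.0274. PLXNB2, a receptor of class 4 semaphorins and the most abundant plexin in controls, was at 71.4, 66.4 and 51.8 FPKM and then at 51.1, 74.7 and 60.8 FPKM, with overlapping groups (adjusted p = 0.930). PLXNB1, the SEMA4D receptor, averaged 6.99 ± 1.198 and 9.06 ± 0.639 FPKM (adjusted p = 0.103). PLXNB3 averaged 7.50 ± 2.94 and 11.06 ± 1.59 FPKM (adjusted p = 0.136), and without control replicate 2, its highest control at 10.8 FPKM, the adjusted p was 0.0162 (range 0.0162 to 0.476). PLXND1, a receptor of vascular guidance that binds SEMA3E, was at 20.9, 19.5 and 22.1 FPKM and then at 15.8, 15.3 and 18.9 FPKM, apart but not past the threshold (adjusted p = 0.0809). PLXNC1, the receptor of SEMA7A, was at 0.457, 0.779 and 1.06 FPKM and then at 0.684, 0.767 and 0.987 FPKM, too low to test.

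Both neuropilins were well expressed and their groups did not overlap, as in 44.8% of all tested genes. NRP1 was at 67.99, 73.9 and 69.9 FPKM in controls and at 78.9, 79.4 and 80.04 FPKM after fluvastatin (adjusted p = 0.164). NRP2, the co-receptor of SEMA3F and of VEGF-C, was at 42.5, 41.4 and 34.3 FPKM and then at 56.2, 53.4 and 45.005 FPKM (log2 fold change 0.38 ± 0.13, adjusted p = 0.0699). NRP2 passed with trend and robust on (0.0377) and with the replicate number as a block (0.0431), over a range of 0.0377 to 0.616.

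Class 3 semaphorins are the secreted ligands of the neuropilin and A-type plexin receptors, and together they summed to 182.7, 184.05 and 196.8 FPKM in controls and to 262.7, 264.8 and 257.8 FPKM after fluvastatin. Of 6 tested, SEMA3A and SEMA3B rose (33.3%, beside 14.1% of all tested genes) and 4 did not pass. SEMA3B (ENSG00000012171.18; chromosome 3, 50267558 to 50277546, plus strand), known as a candidate tumour suppressor, was at 32.4, 33.3 and 27.7 FPKM in controls and at 81.3, 89.3 and 70.4 FPKM in treated libraries. Every treated library held more than double the highest control. SEMA3B rose 2.58-fold, with means of 31.2 ± 3.02 and 80.3 ± 9.51 FPKM, a log2 fold change of 1.34 ± 0.12 and adjusted p = 0.00108, and its call was lost only with depth as a covariate (0.114, over a range of 1.09e-04 to 0.114).

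SEMA3A (ENSG00000075213.10; chromosome 7, 83955777 to 84492724, minus strand), the founding growth-cone repellent and the highest semaphorin here, was at 70.5, 72.8 and 85.5 FPKM and then at 106.1, 94.5 and 113.1 FPKM. The groups did not overlap, and SEMA3A rose 1.37-fold (log2 fold change 0.45 ± 0.12, adjusted p = 0.0299). The call was lost without control replicate 0 (0.0841) or 1 (0.0885), without fluvastatin replicate 0 (0.0893) or 2 (0.0920), without a filter (0.0536) and with depth as a covariate (0.210), over a range of 0.0112 to 0.210. SEMA3C and SEMA3F had overlapping groups, with means of 36.4 and 38.8 FPKM for SEMA3C and of 23.1 and 20.8 FPKM for SEMA3F. SEMA3D was at 18.99, 18.7 and 19.7 FPKM and then at 15.2, 16.2 and 16.3 FPKM (adjusted p = 0.0592), and it passed without a filter (0.0340), with genes averaging under 5 FPKM left out (0.0373) and with quantile normalization (0.0475), over a range of 0.0340 to 0.493. SEMA3E, the PLXND1 ligand, averaged 1.84 ± 0.611 and 1.35 ± 0.263 FPKM, and SEMA3G stayed at or below 0.101 FPKM.

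SEMA7A (ENSG00000138623.9; chromosome 15, 74409289 to 74433958, minus strand), a lipid-anchored semaphorin that binds integrins and PLXNC1, was at 65.7, 65.8 and 61.7 FPKM in controls and at 95.5, 91.6 and 90.5 FPKM after fluvastatin. The libraries of each group lay close together and the groups far apart. SEMA7A rose 1.44-fold (log2 fold change 0.52 ± 0.08, adjusted p = 0.00588), a call lost only with depth as a covariate (0.220, over a range of 0.00117 to 0.220).

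Transmembrane semaphorins went both ways. SEMA6B (ENSG00000167680.15; chromosome 19, 4542593 to 4559808, minus strand), a class 6 ligand of A-type plexins, was at 8.58, 8.94 and 7.69 FPKM in controls and at 2.93, 3.95 and 2.75 FPKM after fluvastatin. Its groups were far apart, and SEMA6B fell 2.62-fold (log2 fold change -1.17 ± 0.13, adjusted p = 0.00185), a call lost only with depth as a covariate (0.0719, over a range of 6.72e-04 to 0.0719). SEMA4B (ENSG00000185033.14; chromosome 15, 90160604 to 90229679, plus strand), a class 4 semaphorin, was at 9.44, 13.4 and 11.9 FPKM and then at 22.1, 18.2 and 17.2 FPKM. It rose 1.65-fold (log2 fold change 0.69 ± 0.15, adjusted p = 0.0192), and the call was lost without fluvastatin replicate 0 (0.0616), its highest library, with depth as a covariate (0.367) and with the replicate number as a block (0.0570), over a range of 0.00884 to 0.367.

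The other transmembrane members did not pass. SEMA4D, the PLXNB1 ligand also known as CD100, was the highest class 4 member in controls at 8.84, 11.7 and 14.8 FPKM and was at 11.5, 6.22 and 5.49 FPKM after fluvastatin, where replicate 0 lay apart from the other 2. Its adjusted p was 0.172, and 0.0458 without fluvastatin replicate 0 (range 0.0458 to 0.998). SEMA4F averaged 6.14 ± 2.01 and 9.41 ± 1.36 FPKM (adjusted p = 0.0947), and it passed without control replicate 0 (0.0349) and with the replicate number as a block (0.0411), over a range of 0.0349 to 0.539. SEMA4C averaged 9.04 ± 1.44 and 8.32 ± 1.07 FPKM (adjusted p = 0.624). SEMA6A averaged 1.45 ± 0.561 and 1.87 ± 0.333 FPKM (adjusted p = 0.363). Reads of SEMA6A-AS1, at 1.49 to 3.47 FPKM on the other strand, overlap 2.4% of its exons. SEMA4A, SEMA4G, SEMA5A, SEMA6C and SEMA6D were too low to test. SEMA5A, the class 5 member, was at 0.926, 0.781 and 0.595 FPKM and then at 0.515, 0.572 and 0.942 FPKM, with overlapping groups. SEMA6C was at 0.347, 0.512 and 0.574 FPKM in controls and at 1.14, 0.838 and 1.12 FPKM in treated libraries, and without the filter on low values its adjusted p was 0.0359. SEMA4A was at or below 0.0764 FPKM in controls and between 0.178 and 0.417 FPKM in treated libraries. The exons of SEMA4G overlap by 22.3% with MRPL43, a gene on the other strand at 52.2 to 63.0 FPKM, so reads of the 2 cannot be told apart there.

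Of the B ephrins, which signal back into the cell that carries them, EFNB1 (ENSG00000090776.5; chromosome X, 68828997 to 68842147, plus strand) was at 5.85, 5.54 and 5.10 FPKM in controls and at 11.3, 12.7 and 10.7 FPKM after fluvastatin. The groups stood apart by more than the range within either. EFNB1 rose 2.11-fold, with means of 5.50 ± 0.375 and 11.6 ± 1.06 FPKM, a log2 fold change of 0.95 ± 0.10 and adjusted p = 0.00156, a call lost only with depth as a covariate (0.138, over a range of 5.79e-04 to 0.138). EFNB2, the ligand of EPHB4 in the arteries and veins, was at 6.23, 6.16 and 6.66 FPKM and then at 5.95, 5.86 and 6.96 FPKM (adjusted p = 0.892). EFNB1 held 43.0% of the summed B ephrin FPKM in controls and 61.7% after fluvastatin. EFNB3 was at or below 1.09 FPKM in each library.

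Among the A ephrins none of 4 tested passed with limma, beside 27.7% of all tested genes. EFNA1 and EFNA5 had unadjusted p-values of 0.0318 and 0.0414. EFNA5, the highest ephrin in controls, was at 15.5, 15.5 and 12.2 FPKM and then at 11.2, 8.55 and 12.5 FPKM (adjusted p = 0.109). EFNA1, the main ligand of EPHA2, was at 4.81, 5.82 and 4.02 FPKM and then at 5.94, 8.15 and 6.47 FPKM, apart but not past the threshold (log2 fold change 0.42 ± 0.15, adjusted p = 0.0900). With depth as a covariate the EFNA1 value was -0.16 (adjusted p = 0.694, over a range of 0.0530 to 0.694). EFNA3 and EFNA4 had overlapping groups, with group means between 1.65 and 2.63 FPKM. Both share exon sequence with the read-through gene AL691442.1, which was listed at 0 in 5 of the 6 libraries. EFNA2 was above 0 only in control replicate 2.

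EPHA2 (ENSG00000142627.12; chromosome 1, 16124337 to 16156087, minus strand), a receptor kinase long studied in melanoma, was the most abundant of all guidance genes, at 180.7, 189.0 and 184.2 FPKM in controls and at 168.0, 182.6 and 157.6 FPKM after fluvastatin. The groups overlapped (log2 fold change -0.13 ± 0.09, adjusted p = 0.344). It supplied 82.6% of the summed Eph receptor FPKM in controls and 82.1% after fluvastatin. EPHB4, the next Eph receptor, was at 27.99, 25.6 and 17.4 FPKM and then at 24.2, 24.98 and 20.3 FPKM (adjusted p = 0.990), and EPHB2 averaged 7.31 ± 0.438 and 7.56 ± 0.107 FPKM (adjusted p = 0.736). EPHA4 averaged 2.27 ± 0.660 and 2.22 ± 0.470 FPKM (adjusted p = 0.972).

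The 2 Eph receptors that fell, of 6 tested (33.3%, beside 13.6% of all tested genes), were both scarce. EPHB1 (ENSG00000154928.16; chromosome 3, 134597801 to 135260467, plus strand) was at 2.62, 2.42 and 1.65 FPKM in controls and at 1.20, 1.38 and 0.927 FPKM after fluvastatin. It fell 1.90-fold, with a log2 fold change of -0.57 ± 0.15 and adjusted p = 0.0323. The EPHB1 call was lost without control replicate 0 (0.0868) or 1 (0.0942), without fluvastatin replicate 0 (0.0827), 1 (0.0533) or 2 (0.0980), without a filter (0.0736), with trend and robust on (0.0501) and with depth as a covariate (0.229), over a range of 0.0156 to 0.229. EPHA6 (ENSG00000080224.17; chromosome 3, 96814581 to 97752460, plus strand) was at 1.66, 1.49 and 1.88 FPKM and then at 0.915, 1.22 and 0.874 FPKM. It passed the filter only through the controls, where it is higher, so the direction of its difference was tied to its being tested. It fell 1.67-fold, with a log2 fold change of -0.42 ± 0.11 and adjusted p = 0.0296. The EPHA6 call was lost without control replicate 0 (0.0709), 1 (0.0506) or 2 (0.0717), without fluvastatin replicate 0 (0.0953) or 2 (0.0918), with trend and robust on (0.0974), with the replicate number as a block (0.0754) and with depth as a covariate (0.420), over a range of 0.0244 to 0.420. EPHA1, EPHA3, EPHA5, EPHA7, EPHA8, EPHB3 and EPHB6 stayed at or below 0.786 FPKM in each library and were not tested. Of these, EPHA5 lay between 0.0764 and 0.162 FPKM in controls and between 0.181 and 0.296 FPKM after fluvastatin. EPHA7 lay between 0.366 and 0.460 FPKM in controls and between 0.251 and 0.337 FPKM after fluvastatin. Without the filter on low values neither passed with limma (adjusted p = 0.222 for EPHA5 and 0.213 for EPHA7).

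**Figure D4:**
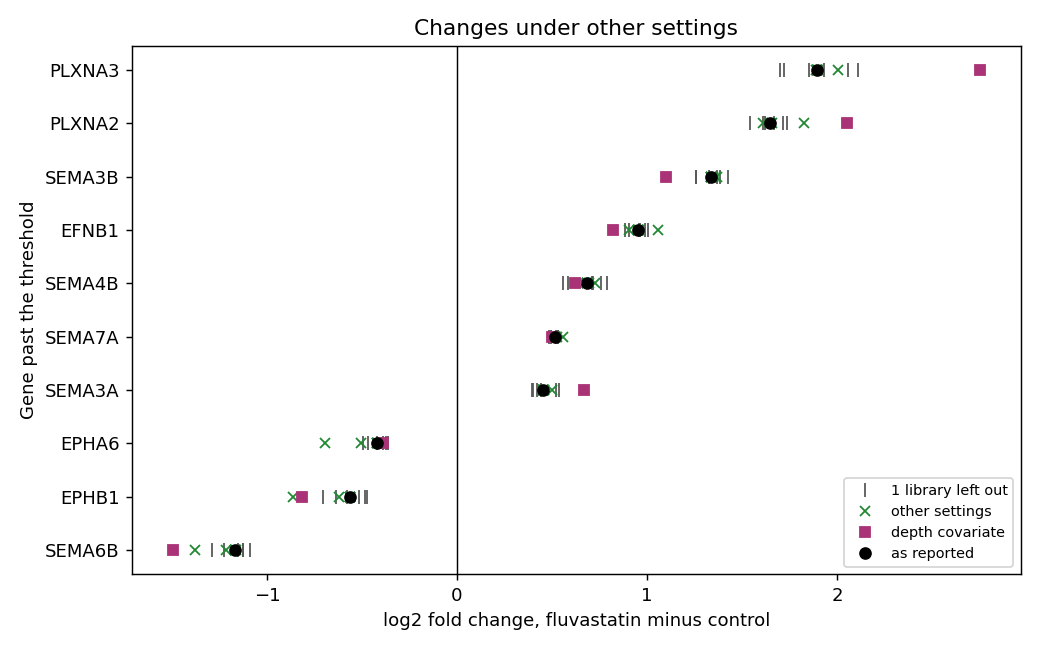
The log2 fold change (fluvastatin minus control) of the 10 called genes as reported (circle), with 1 library left out (bars), with depth as a covariate (square) and under the other settings (crosses). Each mark lies on the same side of 0 as the reported value, and PLXNA3 has its largest value, 2.75, with depth as a covariate.

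The 250 bases before the RefSeq start site (GRCh38.p14) were read for 46 of the 51 genes, all but EFNB3, NRP1, SEMA3A, SEMA6A and SEMA6B. They are shown for the 6 of these that rose, to set genes that moved the same way side by side. The windows of SEMA3B and SEMA4B lie inside the gene spans given above, from 50272869 (gene start 50267558) and from 90201080 (gene start 90160604). So does that of EPHB1, which fell, from 134795010 (gene start 134597801). Only 1 window was read per gene, so the letters before other start sites of these genes are not known here. Capitals mark the SP box GGGCGG and the KLF box CCACCC, read on both strands.
PLXNA2, chr1:208244385-208244634, minus strand: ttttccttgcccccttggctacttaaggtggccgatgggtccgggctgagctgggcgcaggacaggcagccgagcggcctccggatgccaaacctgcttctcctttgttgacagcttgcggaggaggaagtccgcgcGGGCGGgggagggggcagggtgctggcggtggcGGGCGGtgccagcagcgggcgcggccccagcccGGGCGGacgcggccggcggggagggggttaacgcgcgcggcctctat
PLXNA3, chrX:154458031-154458280, plus strand: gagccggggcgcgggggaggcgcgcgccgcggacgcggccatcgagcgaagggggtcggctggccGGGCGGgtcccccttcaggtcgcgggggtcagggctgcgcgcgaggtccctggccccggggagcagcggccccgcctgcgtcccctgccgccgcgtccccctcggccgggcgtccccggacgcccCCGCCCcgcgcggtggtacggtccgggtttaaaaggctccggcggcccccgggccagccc
SEMA3B, chr3:50272869-50273118, plus strand: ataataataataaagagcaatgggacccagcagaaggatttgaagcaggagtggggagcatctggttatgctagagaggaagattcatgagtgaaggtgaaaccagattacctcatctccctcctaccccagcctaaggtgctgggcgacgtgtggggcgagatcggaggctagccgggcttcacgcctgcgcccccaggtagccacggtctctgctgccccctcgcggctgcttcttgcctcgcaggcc
EFNB1, chrX:68828771-68829020, plus strand: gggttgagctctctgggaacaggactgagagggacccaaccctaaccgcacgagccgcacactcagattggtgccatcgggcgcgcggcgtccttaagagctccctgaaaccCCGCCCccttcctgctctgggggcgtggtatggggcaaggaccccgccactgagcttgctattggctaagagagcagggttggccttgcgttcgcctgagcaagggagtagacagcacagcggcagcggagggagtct
SEMA4B, chr15:90201080-90201329, plus strand: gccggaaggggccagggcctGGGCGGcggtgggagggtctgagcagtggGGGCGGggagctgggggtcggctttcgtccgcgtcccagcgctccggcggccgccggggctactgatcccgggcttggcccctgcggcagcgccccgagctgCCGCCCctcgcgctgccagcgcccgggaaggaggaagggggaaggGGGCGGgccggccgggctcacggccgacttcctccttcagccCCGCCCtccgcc
SEMA7A, chr15:74433959-74434208, minus strand: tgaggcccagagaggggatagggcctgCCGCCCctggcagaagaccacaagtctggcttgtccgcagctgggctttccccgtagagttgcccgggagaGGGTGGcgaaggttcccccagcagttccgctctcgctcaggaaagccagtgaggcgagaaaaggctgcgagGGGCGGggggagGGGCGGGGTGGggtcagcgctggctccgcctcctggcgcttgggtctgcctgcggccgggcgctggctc
These windows differ in the letters they hold. The PLXNA3 window is 82.8% G and C with 41 CG sites, that of SEMA4B 79.2% with 29, that of PLXNA2 72.4% with 27, that of SEMA7A 70.0% with 17, that of EFNB1 63.6% with 15 and that of SEMA3B 57.6% with 11, beside medians of 67.0% and 18 over the 46 genes and of 58.0% and 11 over 35116 promoters. The SP box was in 37 of the 46 windows and in 42.6% of all promoters. It was in 5 of the 6 windows of genes that rose, the exception being SEMA3B, and in both windows of genes that fell, EPHA6 and EPHB1. The KLF box was in 20 of the 46 and in 31.3% of all promoters. It was in 1 of the 6 windows of genes that rose, that of SEMA7A, with 2 copies of which 1 shares its first base with an SP box, and in 1 of the 2 of genes that fell, that of EPHB1. The TEAD box GGAATG was in 3 of the 46 windows (11.9% of all promoters), the AP-1 box TGANTCA in 1 (6.57%) and the TATA box TATAAA in 1 (10.7%), none of them a gene that rose or fell. A match describes letters in the window and not a binding site.

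Partner genes of the 2 systems were read from lists of textbook members. These lists were chosen with earlier results of these data known, so their shares are descriptions only. Of 27 tested co-receptors and effectors of semaphorins and plexins, 11 rose (40.7%), 1 fell (3.7%) and 15 did not pass, with a median log2 fold change of 0.32, beside 14.1% and 13.6% of all tested genes. RRAS, a Ras-type GTPase that plexins switch off, was at 13.7, 16.7 and 14.96 FPKM in controls and at 49.2, 50.9 and 42.8 FPKM after fluvastatin, which is 3.15-fold (adjusted p = 4.07e-04). MICAL1, an actin-oxidizing enzyme that binds plexins, rose 1.92-fold, and DPYSL2, a microtubule-binding mediator of SEMA3A signals, rose 1.69-fold from 59.9 ± 4.68 to 101.4 ± 4.19 FPKM. KDR, a VEGF receptor that pairs with NRP1, was at 0.293 ± 0.0297 and 1.34 ± 0.165 FPKM and passed the filter only through the treated libraries; without it 10 of 26 rose (38.5%). The member that fell, SH3BP1, a Rac-inactivating protein tied to SEMA3E signals and chosen after its values were seen, went from 9.33 ± 0.535 to 5.11 ± 0.628 FPKM. Of the VEGF ligands that neuropilins bind, PGF fell 2.53-fold from 8.07 ± 1.14 to 3.19 ± 0.320 FPKM and VEGFC rose 1.51-fold from 22.7 ± 0.917 to 34.2 ± 1.72 FPKM. VEGFA and VEGFB did not pass, with means of 36.5 and 42.3 FPKM for VEGFA and of 48.6 and 47.7 FPKM for VEGFB.

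Of 31 tested effectors of Eph receptors and ephrins, 7 rose (22.6%, beside 14.1% of all tested genes) and 24 did not pass, with a median of 0.05. NGEF and KALRN, among those that rose, passed the filter only through the treated libraries, and without them 5 of 29 rose (17.2%), with a median of 0.01. NGEF, an exchange factor that docks on EphA receptors, was at 0.340, 0.696 and 0.355 FPKM in controls and at 5.31, 3.66 and 4.68 FPKM after fluvastatin (adjusted p = 6.07e-04). ABL2, a kinase of the actin cytoskeleton, rose 1.81-fold from 32.96 ± 1.37 to 59.5 ± 3.996 FPKM. The PDZ proteins SDCBP and RGS3, which bind the tail of B ephrins, rose 1.35-fold and 1.43-fold. In the other guidance families 4 of 15 tested genes rose (26.7%, beside 14.1% of all tested genes), 1 fell (6.67%, beside 13.6%) and 10 did not pass, with a median of 0.12. ROBO4, a receptor of the Slit-binding family, rose 2.43-fold from 22.1 ± 1.60 to 53.7 ± 1.85 FPKM, and the secreted netrin NTN4 rose 2.56-fold from 8.32 ± 1.04 to 21.3 ± 1.04 FPKM. UNC5D, a netrin receptor, and FLRT2, a membrane ligand of UNC5D, rose 2.38-fold and 1.92-fold. The gene that fell, RGMB, a neogenin ligand chosen after its values were seen, went from 34.3 ± 1.02 to 28.04 ± 1.24 FPKM. With depth as a covariate limma called 0 of these 77 partner genes, while 21 (27.3%) had an unadjusted p below 0.05, beside 19.4% of all tested genes in the same fit.

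**Figure D5:**
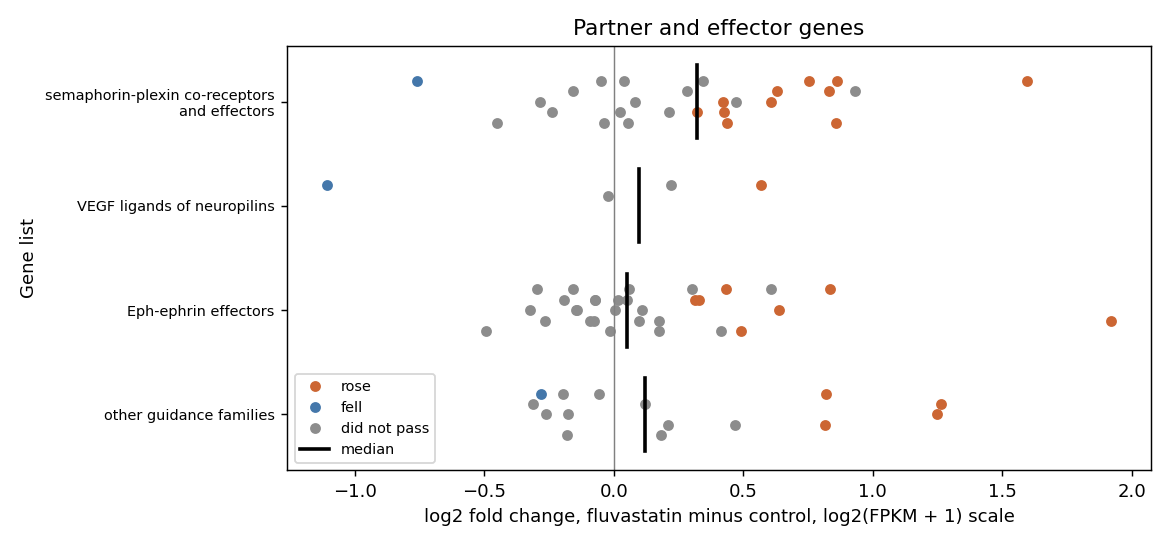
Each point is the log2 fold change (fluvastatin minus control, log2(FPKM + 1) scale) of 1 tested partner gene in 4 lists, coloured by its call, and black bars are the list medians. The medians are 0.32, 0.10, 0.05 and 0.12 from top to bottom, and RRAS at 1.60 and NGEF at 1.92 lie farthest to the right in their lists.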

How the data were processed

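RNA-seq libraries of A375 cells, 3 untreated and 3 treated with fluvastatin, were read from 1 table of 29790 genes. Per the submitters' processing notes, STAR, Cufflinks, Cuffdiff and hg38 were used. No unit stands in the deposited header. The values were read as FPKM, the measure that the authors' Cufflinks tools give. Tool versions, the annotation, the strand setting and any rescaling are not given in the sources used here. Absolute depth is therefore unknown, and reads of overlapping or antisense genes cannot be told apart.

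Genes that reached 1 FPKM or more in 3 or more of the 6 libraries entered the test, which used log2(FPKM + 1), a scale that understates the change of low genes, with limma 3.58.1 in R 4.3.3 (trend and robust off, no block), two-sided, with Benjamini-Hochberg adjustment over all 14344 genes and a threshold of 0.05. "Rose" and "fell" are used only past it. Means ± SD (n = 3 each) and folds refer to FPKM. On simulated data over 14344 genes the fit found 20% of 50 genes shifted by log2 0.5, 66% at 1, 90% at 2 and 98% at 3, and 6 of its 143 calls were false. With 50 genes per shift, far fewer genes changed there than the 3971 called in the data, and no depth difference was simulated. These rates are therefore a check of the fit and need not hold for this comparison. Relative depth is the commonest ratio between low values of 2 libraries, with a largest log2 error of 5e-04 over 29790 genes on simulated libraries. Gene positions came from GENCODE 29, which matched 29542 identifiers and all 51 guidance genes, and promoter sequences from RefSeq. The guidance genes, partner lists and markers were chosen with earlier results of these data known. The genes named are every called member, the highest member of each subclass, and up to 4 genes with the smallest adjusted p of each list, and other members are given by means or ranges. NRP2, SEMA3D, EFNA1 and SEMA6C are also given by library, chosen after their values were seen. KALRN and the markers SYT1, SNAP25, COL1A1, KRT10, KRT14, KRT5 and LYZ are named, also chosen after their values were seen. Alternatives tried were no filter, a filter on a mean of 5 FPKM, a pseudocount of 0.1, scaling by trimmed means of M-values (TMM, unweighted), quantile normalization, trend and robust on, depth as a covariate, the replicate number as a block, and leaving out each library in turn.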

Additional observations from a re-analysis of the deposited data

How the results depend on the processing

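Every called guidance gene kept its direction in every alternative run. PLXNA2 stayed past the threshold in all 14, PLXNA3, SEMA3B, SEMA6B, SEMA7A and EFNB1 in 13, and the other 4 in fewer. With depth as a covariate 1 gene rose and 0 fell by limma (7 and 2 at an unadjusted p below 0.05, 26.5% of those tested beside 19.4% of all genes), the median of the tested genes was -0.0394, 0 partner genes passed, and 73 of all genes did (60 up, 13 down). Every treated library was deeper than every control, so depth and treatment cannot be told apart. With trend and robust on 1 gene fell. The median was 0.0398 with no filter, which tests all 51 genes, and 0.17 with genes averaging under 5 FPKM left out, which tests 27. Leaving out 1 library gave 5 to 8 rises and 1 to 2 falls (1 without control replicate 0 or 1 or fluvastatin replicate 2), medians of 0.0515 to 0.14 and 16 to 24 partner calls, beside 26 (17 without control replicate 1, 16 without fluvastatin replicate 2). Over all genes it gave 2340 to 3416 calls (1274 to 1785 up, 1066 to 1631 down). The lowest came without fluvastatin replicate 0, calls also fell past 1.5-fold to 2641 without fluvastatin replicate 2, and downward calls to 1245, 1275 and 1284 without control replicate 1 and fluvastatin replicates 1 and 2. The cause of these shifts was not tested.

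Of genes that did not pass, 9 changed sign in some alternative. EFNA1 turned from 0.42, with groups that did not overlap, and EFNA3 from 0.22. With depth as a covariate EFNA1, EFNA3, EFNA4, EFNB2 and EPHB2 gave -0.16, -0.20, -0.37, 0.0427 and -0.0758. EPHB2 (-0.0043) and PLXNB2 (0.0155) turned with quantile normalization and EPHB4 (0.0031) with TMM scaling. Leaving out 1 library gave -0.0592 to 0.1826 for EFNA4, -0.089 to 0.0182 for EFNB2, -0.1838 to 0.1118 for EPHA4, -0.2034 to 0.1264 for EPHB4, -0.1639 to 0.1049 for PLXNB2 and -0.2061 to 8e-04 for SEMA4C. The median over all genes was 0.008 with no filter.

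Same-numbered libraries of the 2 groups had deviations from the group means correlated at -0.0015, 0.08 and 0.08 across genes. Differently numbered libraries gave -0.1364 to 0.0579. These small values do not settle whether the numbers mark a pairing. The replicate block gave 8 rises and 2 falls among the guidance genes, 20 partner calls and 3154 calls over all genes.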
